A study of Mus musculus with 12 samples.

Results

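The genes described here are 10 components and regulators of mTORC1 (mechanistic target of rapamycin complex 1), measured by RNA-sequencing in 562 vascular tumor cells with and without genes of autophagy. They were chosen by name as Tsc1 and Tsc2, which restrain the complex, Rheb, which activates it, its subunits Mtor, Rptor, Akt1s1 and Deptor, its substrates Rps6kb1 and Eif4ebp1, and the stress-induced regulator Ddit4. All 10 were found among the 14851 genes of each deposited table and all 10 passed the filter on low values. 562 cells are a spontaneously immortalized mouse line (C57BL/6) from a vascular tumor that arose after tamoxifen-induced, Scl-Cre driven loss of Tsc1 in endothelial cells, and the labels give their tissue as lymphatic endothelial cells. The 4 groups were control cells, Fip200 KO cells, Atg5 KO cells and Atg7 KO cells, with 3 libraries each. In the KO cells Fip200 (Rb1cc1), Atg5 or Atg7 was disrupted by lentiviral CRISPR-Cas9, and control cells carried a guide against EGFP. The genotype label of the control cells reads wildtype, although every group descends from the same Tsc1-deleted tumor. All groups therefore share the loss of Tsc1 and stand on 1 parental line, and no Tsc1-intact cells were part of the comparison. The study describes the RNA samples of the KO cells as independent replicates and its experiments as biologically replicated. The labels do not say whether the libraries of a group came from separate cultures, nor which of the study's Fip200 KO lines, which it names together, each Fip200 KO library came from, so p-values measure the spread between these libraries, which may in part be technical.

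TSC1 and TSC2 form the complex that switches off the small GTPase Rheb, and active Rheb turns on mTORC1 at the lysosome. mTORC1 then drives protein synthesis through S6 kinase and 4E-BP1 and represses autophagy by phosphorylating the ULK1 complex, which holds FIP200. Autophagy in turn returns amino acids from the lysosome, where mTORC1 senses them. In endothelial cells that lack Tsc1 the brake on Rheb is missing, and the complex is known to be constantly active. Transcript levels do not report the activity of the kinase. Reads from Tsc1 exons outside the floxed segment still count, so the level of Tsc1 does not check the deletion either.

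Levels are given as RPKM, reads scaled to the length of the gene and to the total of the library, which can be compared between genes. Log2 fold changes were taken on log2(RPKM + 0.5) and understate the change of low genes. A gene passed at an adjusted p of at most 0.1 by limma with Benjamini-Hochberg adjustment over all genes tested, and it was called if its log2 fold change was also at least 1 in size. Between 17264989 and 23627944 reads were counted per library. The library names carry 3 prefixes. FY marks control replicate 1 and all Fip200 KO replicates, JG marks control replicates 2 and 3 and Atg5 KO replicates 1 and 2, and Yang marks Atg5 KO replicate 3 and all Atg7 KO replicates. What the prefixes stand for is not given in the sources used here. No control carries the prefix of the Atg7 KO libraries, so for them prefix and knockout cannot be told apart within a prefix. Of the knocked-out genes, Atg7 fell in Atg7 KO cells (log2 fold change -1.97, adjusted p = 0.0216), but also in Atg5 KO cells (-0.95, adjusted p = 0.0083), and it ran from 8.23 to 38.3 RPKM over the Fip200 KO libraries against 18.4 to 25.0 in control, while Rb1cc1 in Fip200 KO cells (-0.74, adjusted p = 0.404) and Atg5 in Atg5 KO cells (0.00, adjusted p = 0.994) did not pass. A guide-made frameshift can leave the transcript level as it was. All 8 endothelial markers were above 1 RPKM in all 12 libraries, from Tek (control mean 17.6) to Emcn (835), as were the lymphatic markers Lyve1 (113), Flt4 (52.6) and Pdpn (144). The mean of Lyve1 was 226 to 253 in the KO groups, that of Cdh5 394 to 524 (232 in control) and that of Esam 168 to 227 (106 in control), while the means of Pdpn (113 to 233), Tie1 (138 to 251) and Tek (16.3 to 27.3) lay on both sides of control (144, 157 and 17.6), and the lymphatic master regulator Prox1 was below 1 RPKM in 7 of 12 libraries and at most 5.79. Of 8 fibroblast and mural markers, Rgs5, Cspg4 and Col1a1 stayed below 1 RPKM in every library, while the summed level of the list was 7.91 to 25.0 in control, 16.2 to 290 in Fip200 KO, 111 to 212 in Atg5 KO and 73.5 to 361 in Atg7 KO, most of it Thy1 (mean 10.5 in control and 144 to 204 in the KO groups). Acta2 (mean 1.39 in control, 4.13 to 7.54 in the KO groups) and Col1a2 (0.0154, 0.281 to 1.13) were also higher there, and Pdgfra and Pdgfrb were lower, with means of 0.166 to 0.249 and 0.0513 to 0.0913 against 3.80 and 1.49 in control. Pdgfra and Pdgfrb were below 1 RPKM in 10 and 11 of 12 libraries, with highest values of 9.02 and 4.19, so their control means rest on few libraries. Of 6 leukocyte markers 4 were in the tables. Ptprc and Adgre1 were at or near 0 in every library, but the mean of Cd68 was 58.6 for control cells and 10.9, 18.9 and 99.4 for the Atg5, Atg7 and Fip200 knockouts, and that of Lyz2 was 16.2 against 4.63, 2.42 and 1.88. In sum this list reached 52.8 to 111 for control cells and 14.8 to 16.6, 13.8 to 27.2 and 19.2 to 265 for the same knockouts. The keratinocyte marker Krt10 was below 1 in every library. The part of these genes in the results below was not tested. In bulk RNA, fewer cells of a type and less RNA per cell cannot be told apart.

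Promoters are shown for the 4 genes whose levels set the knockouts apart from control most regularly, Mtor, Rps6kb1, Akt1s1 and Ddit4. Of the 10 genes, 8 matched the RefSeq promoter table (GRCm38.p6), and Eif4ebp1 and Deptor did not. Each window runs from 250 bases before to 50 bases after the start of the gene, 5′ to 3′ on its own strand. Capitals mark the motifs CCAAT, the box bound by NF-Y, and GGGCGG, the box bound by Sp1-like factors, on either strand, so that they also appear as ATTGG and CCGCCC.
Mtor, chr4:148448332-148448631, plus strand: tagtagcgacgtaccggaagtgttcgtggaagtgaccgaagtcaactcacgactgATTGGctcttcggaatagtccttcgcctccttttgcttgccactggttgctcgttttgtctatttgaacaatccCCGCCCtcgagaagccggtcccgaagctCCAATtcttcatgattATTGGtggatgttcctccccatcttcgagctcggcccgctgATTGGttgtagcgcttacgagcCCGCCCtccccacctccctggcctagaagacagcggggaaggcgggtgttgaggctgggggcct
Rps6kb1, chr11:86544758-86545057, minus strand: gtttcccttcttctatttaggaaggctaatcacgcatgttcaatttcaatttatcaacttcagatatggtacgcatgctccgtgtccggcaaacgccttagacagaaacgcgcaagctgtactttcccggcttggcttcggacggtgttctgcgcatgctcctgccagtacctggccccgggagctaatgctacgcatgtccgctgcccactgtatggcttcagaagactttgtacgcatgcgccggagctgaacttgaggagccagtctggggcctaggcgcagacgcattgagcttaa
Akt1s1, chr7:44850122-44850421, plus strand: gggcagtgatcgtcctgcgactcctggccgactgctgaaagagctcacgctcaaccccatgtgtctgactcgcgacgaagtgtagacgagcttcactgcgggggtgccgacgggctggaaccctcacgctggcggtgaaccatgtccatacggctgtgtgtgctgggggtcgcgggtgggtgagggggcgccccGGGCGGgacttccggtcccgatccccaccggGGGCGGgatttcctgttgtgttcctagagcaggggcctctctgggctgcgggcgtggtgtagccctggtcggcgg
Ddit4, chr10:59951721-59952020, minus strand: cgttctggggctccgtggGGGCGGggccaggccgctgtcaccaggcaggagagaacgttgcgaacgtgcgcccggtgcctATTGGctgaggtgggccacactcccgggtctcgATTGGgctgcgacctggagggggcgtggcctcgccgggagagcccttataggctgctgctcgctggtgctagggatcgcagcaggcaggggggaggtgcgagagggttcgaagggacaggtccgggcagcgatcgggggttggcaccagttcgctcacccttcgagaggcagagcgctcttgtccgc
The Mtor window held 4 CCAAT and 2 GGGCGG boxes, the Ddit4 window 2 and 1, the Akt1s1 window 0 and 2, and the Rps6kb1 window none of either. Among the other matched genes, Rheb had 1 GGGCGG box and 1 CACGTG, the letters that TFEB and MYC bind, and Tsc1, Tsc2 and Rptor had none of these 3 motifs. Of all 32851 promoters of 300 bases, 37.4% held a CCAAT, 35.7% a GGGCGG and 7.15% a CACGTG. The motifs overlapped nowhere in the windows shown. They were picked after the sequences and the levels had been seen, and a match is a description of the letters, not a bound site. Mtor and Rps6kb1, which moved together in the data below, shared none of these motifs.

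In control cells the 10 genes spanned a wide range. Eif4ebp1 (358 ± 61.4 RPKM, SD, n = 3) and Ddit4 (187 ± 99.3) were highest and overlapped each other, and below them came Rheb (68.3 ± 4.67), Akt1s1 (28.8 ± 1.51), Rptor (14.2 ± 1.17), Tsc2 (12.2 ± 0.49), Mtor (9.22 ± 0.379), Tsc1 (5.93 ± 0.949), Rps6kb1 (4.89 ± 0.449) and Deptor (1.90 ± 0.97). From Ddit4 downwards no gene overlapped with the next in this order. The order differed in the KO groups. Rps6kb1 stood above Tsc1 in all 3, overlapping with it in Fip200 KO cells only, and in Atg5 KO and Atg7 KO cells Rheb and Akt1s1 stood above Ddit4, Akt1s1 with overlap. The number of reads behind a value was 458 to 11950 for all genes but Deptor, which had 24 to 619, so its RPKM is the least certain of the 10.

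**Figure D1:**
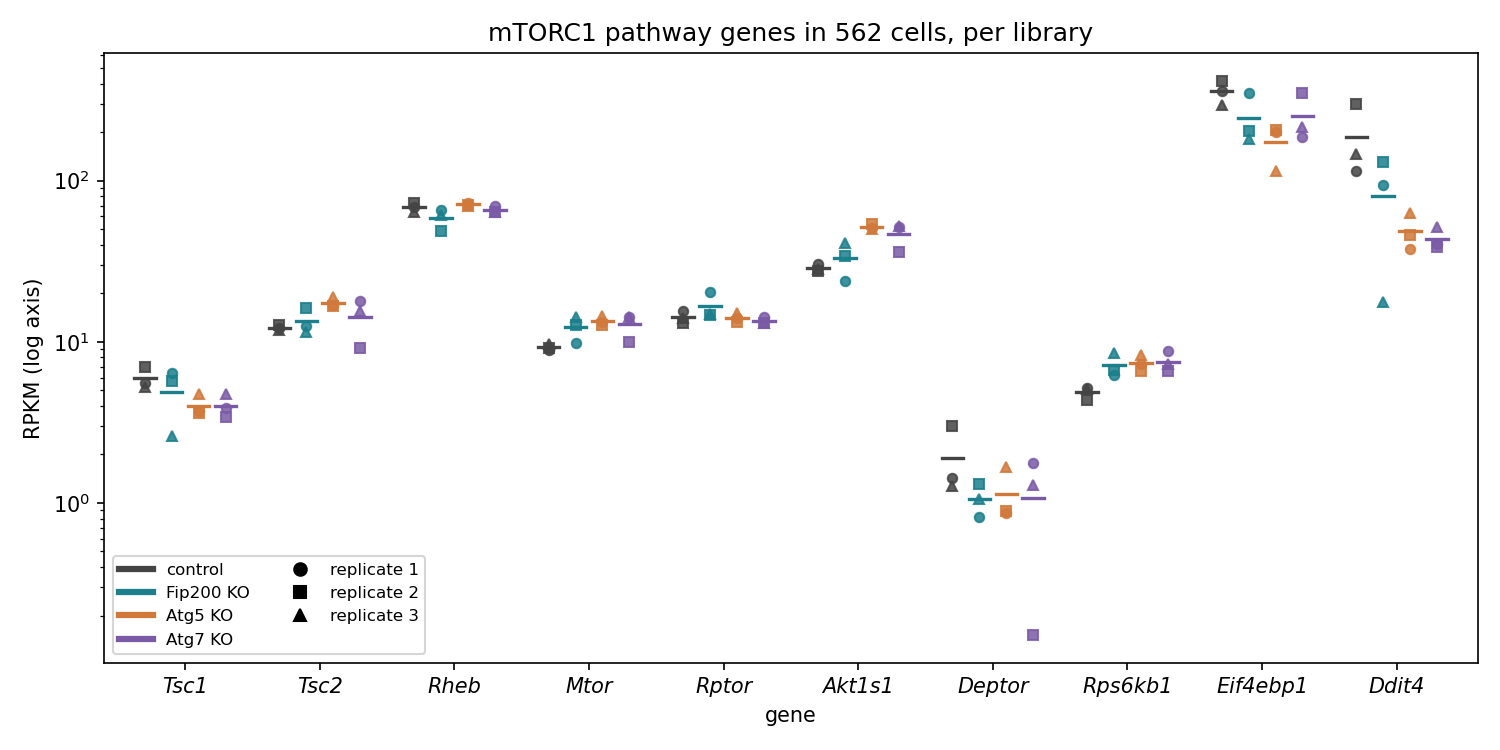
RPKM on a log axis for each of the 10 genes, 1 point per library (shape gives the replicate, colour the group), with the group mean as a bar. Mtor and Rps6kb1 lie above control in all 9 KO libraries, Ddit4 lies below control in 8 of 9, and Rheb and Rptor overlap with control in every KO group.

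The 9 KO libraries were first set against the 3 control libraries gene by gene. Mtor and Rps6kb1 were higher in all 9 KO libraries than in every control library, as were 736 of 12233 genes (6.02%), and Akt1s1 was higher in 8 of 9, where 15.8% of all genes were so in 8 or more. Ddit4 was below every control library in 8 of 9 (14.9% of all genes in 8 or more), and Tsc1 and Eif4ebp1 in 7 of 9 (21.1% in 7 or more). Tsc2 was above in 6 and below in 2, Deptor was below in 5, and Rheb and Rptor were each above all controls in 1 library and below in 2 and 1. The number of genes that passed differed by knockout. In Atg5 KO cells 7 of the 10 passed, 4 higher and 3 lower, where 41.5% of all genes tested passed, 22.9% higher and 18.7% lower. The balance over all genes depended on the scaling, with 2707 higher and 2207 lower as deposited and 2238 and 2509 after median-of-ratios scaling. In Atg7 KO cells 3 passed, 2 higher and 1 lower, against 25.1% of all genes, 11.3% higher and 13.7% lower. That count rested on single libraries. It was 6 without Atg7 KO replicate 2, 2 without control replicate 1 and 1 without any other library of the comparison, while the number of all genes that passed ran from 707 without control replicate 3 to 3875 without Atg7 KO replicate 2, beside 2955 with all 6. In Fip200 KO cells limma passed 0 of 10, against 2.05% of all genes. At an unadjusted p under 0.05 it was also 0 of 10, beside 1904 of 11803 genes. Called were 2 genes in Atg5 KO cells, Ddit4 and Eif4ebp1, both lower (6.94% of all genes were called lower and 11.2% in either direction), and 1 in Atg7 KO cells, Ddit4 (6.81% and 10.1%). The 3 comparisons share their control libraries, so a control library that stands apart moves all of them.

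In 1 fit of all 12 libraries, 5 of the 10 genes passed in the Atg5, 3 in the Atg7 and 0 in the Fip200 knockout, beside 2328, 2448 and 1155 of 12233 genes. Tsc1 in Atg5 KO against control (adjusted p = 0.262) and Tsc2 in Atg5 KO against control (adjusted p = 0.168) were the members that no longer passed there. With a term for the library-name prefix added to that fit, 0 of the 10 genes passed in any comparison, and 787, 38 and 47 of all genes did (6.43%, 0.311% and 0.384%). In that fit Fip200 KO cells are set against 1 control of their own prefix, and Atg7 KO cells are tied to control only through Atg5 KO replicate 3. Standard errors were larger, while Ddit4 in Atg7 KO against control was -2.85 (SE 1.186), Akt1s1 in Atg7 KO against control 0.77 (SE 0.428) and Akt1s1 in Atg5 KO against control 0.89 (SE 0.28, adjusted p = 0.127). Values moved both ways in Atg7 KO against control. Tsc1 went to -0.885, while Rps6kb1 shrank to 0.365 and Mtor to 0.261, Tsc2 went to -0.01 and Eif4ebp1 turned to 0.284. Within a prefix, KO and control libraries can be set side by side without a test. Among JG libraries, Atg5 KO replicates 1 and 2 lay outside the range of control replicates 2 and 3 for 8 of the 10 genes, the 7 that passed in the full comparison, in the same directions, and Deptor. With 2 libraries on each side this held for 73.8% of all genes, so the count itself is near the background. Among FY libraries the only control is replicate 1. The 3 Fip200 KO libraries were all above it for Mtor (0.43) and Rps6kb1 (0.42) and all below it for Eif4ebp1 (-0.62), Rheb (-0.24) and Deptor (-0.32), 5 of the 10 genes beside 43.1% of all genes.

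**Figure D2:**
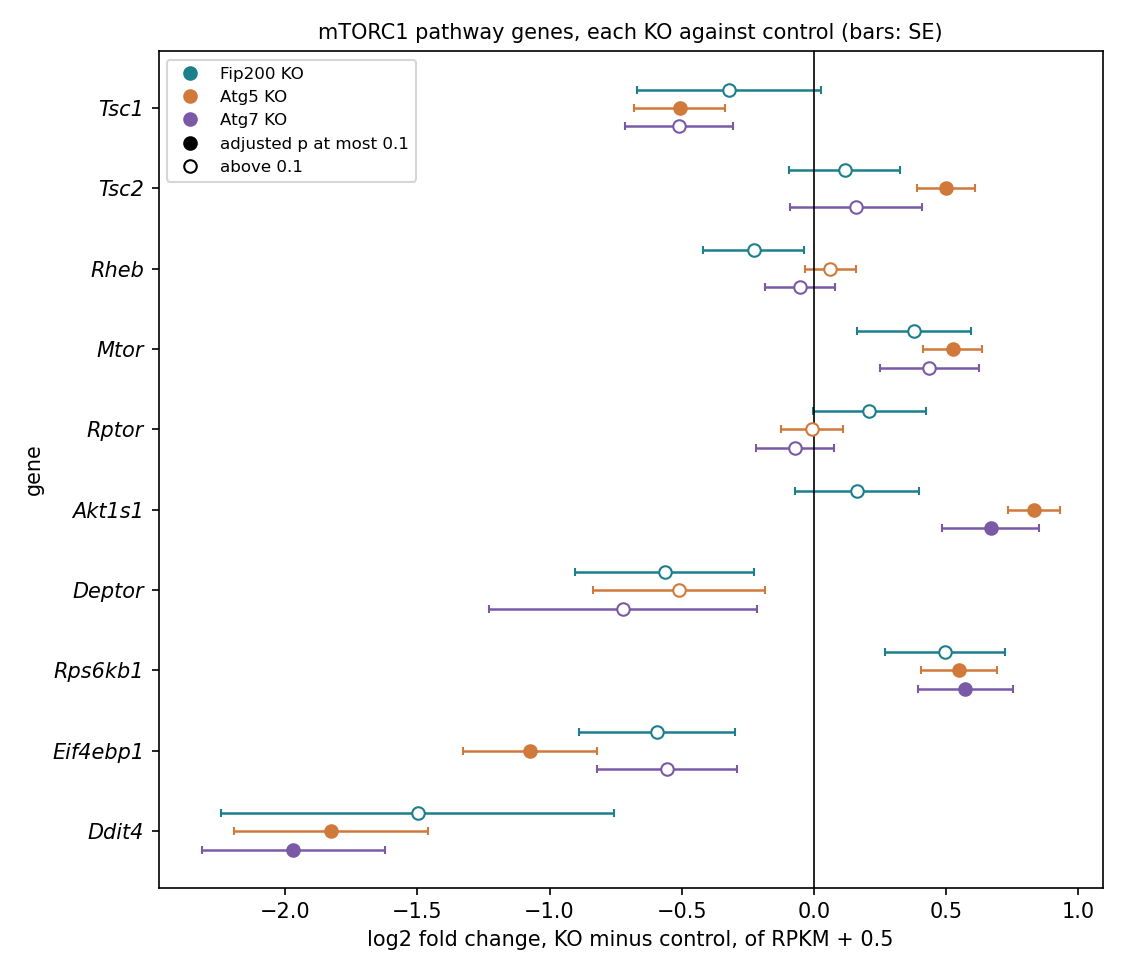
Log2 fold change of each KO group against control on log2(RPKM + 0.5), with the standard error as a bar (n = 3 libraries per group) and filled points where the adjusted p was at most 0.1. Ddit4 is the lowest gene in all 3 comparisons (-1.50 to -1.97) and Akt1s1 the highest in Atg5 KO and Atg7 KO cells (0.83 and 0.67).

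Of the TSC complex, Tsc1 was lower and Tsc2 higher in Atg5 KO cells. Tsc1 was at 5.55, 7.01 and 5.23 RPKM in the control libraries, 3.70, 3.61 and 4.75 in Atg5 KO, 3.91, 3.39 and 4.76 in Atg7 KO, and 6.44, 5.69 and 2.59 in Fip200 KO. Every Atg5 KO and Atg7 KO library lay below every control library, and of the Fip200 KO libraries only replicate 3 did. The log2 fold change was -0.51 (SE 0.172, adjusted p = 0.0649) in Atg5 KO, -0.51 (SE 0.203, adjusted p = 0.128) in Atg7 KO and -0.32 (SE 0.348, adjusted p = 0.668) in Fip200 KO cells. The Atg5 KO value no longer passed without control replicate 2 (-0.39, adjusted p = 0.132), without Atg5 KO replicate 1 (-0.46, adjusted p = 0.193) or without Atg5 KO replicate 2 (-0.44, adjusted p = 0.191). Within the JG libraries it was -0.66. Without Fip200 KO replicate 3 the Fip200 KO value was 0.04.

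Tsc2, whose product carries the GTPase-activating domain of the complex, was even in control at 12.1, 12.7 and 11.8 RPKM. It was 16.8, 16.8 and 18.9 in Atg5 KO cells, with no overlap, and rose by 0.50 (SE 0.109, adjusted p = 0.0184). In Atg7 KO cells the libraries disagreed. Replicates 1 and 3 were at 17.9 and 15.4, above control, and replicate 2 at 9.20 was below it, so that the log2 fold change was 0.16 (adjusted p = 0.688) with all 3 and 0.43 (adjusted p = 0.092) without replicate 2. Fip200 KO libraries were at 12.6, 16.3 and 11.4 and overlapped with control. The ratio of Tsc2 to Tsc1 RPKM within a library was 2.08 ± 0.234 (SD, n = 3) in control, 4.39 ± 0.361 in Atg5 KO, 3.51 ± 0.962 in Atg7 KO and 3.07 ± 1.24 in Fip200 KO. It did not overlap with control in Atg5 KO and Atg7 KO cells (p = 0.1 by exact permutation of 3 against 3 libraries, two-sided, which is the smallest that can be reached, and 0.133 after Benjamini-Hochberg adjustment over the 12 ratio tests made), while in Fip200 KO cells it did (exact permutation p = 0.3).

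Rheb, the direct target of the complex and activator of mTORC1, passed in no comparison. Control libraries were at 68.7, 72.8 and 63.5 RPKM, Atg5 KO at 73.2, 70.4 and 70.1, Atg7 KO at 69.8, 64.0 and 63.8, and Fip200 KO at 66.2, 48.8 and 61.0. All 3 KO groups overlapped with control. The log2 fold changes were 0.06 (SE 0.097), -0.05 (SE 0.132) and -0.23 (SE 0.19), and none passed (adjusted p = 0.574 or above). Without Fip200 KO replicate 2 the Fip200 KO value was -0.10.

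Among the subunits of the complex, the kinase Mtor rose in Atg5 KO cells and the inhibitor Akt1s1 in both the Atg5 and the Atg7 knockout, while the scaffold Rptor passed in no comparison. Mtor was at 8.87, 9.19 and 9.62 RPKM in control. Atg5 KO libraries were at 13.3, 12.7 and 14.5, Atg7 KO at 14.2, 10.0 and 14.3 and Fip200 KO at 9.80, 12.8 and 14.2. The lowest of the 9, Fip200 KO replicate 1, was close to the highest control. Mtor rose by 0.52 in Atg5 KO cells (SE 0.113, adjusted p = 0.0176; 0.45 within the JG libraries). The differences of 0.44 in Atg7 KO (SE 0.187, adjusted p = 0.15) and 0.38 in Fip200 KO cells (SE 0.217, adjusted p = 0.425) did not pass, although neither group overlapped with control. Groups that did not overlap with control made up 39.6% and 24.1% of all genes in these comparisons, and 5 and 2 of the 10 genes here, against 50.4% and 7 of 10 in Atg5 KO cells. Without Atg7 KO replicate 2 the Atg7 KO value was 0.60 and passed (adjusted p = 0.0374).

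Rptor encodes raptor, which brings substrates to the kinase. Its RPKM was 15.4, 13.1 and 14.1 in control, 14.1, 13.3 and 15.0 in Atg5 KO, 14.3, 13.0 and 13.2 in Atg7 KO and 20.4, 14.7 and 14.9 in Fip200 KO. The groups overlapped, with log2 fold changes of -0.01 (SE 0.117), -0.07 (SE 0.148) and 0.21 (SE 0.212). Without Fip200 KO replicate 1 the Fip200 KO value was 0.06. The ratio of Rptor to Mtor was 1.54 ± 0.171 in control and 1.05 ± 0.0118 and 1.08 ± 0.2 in Atg5 KO and Atg7 KO cells, with no overlap in either (exact permutation p = 0.1, the smallest possible). In Fip200 KO cells it was 2.08, 1.15 and 1.04 in replicates 1, 2 and 3 and overlapped with control.

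Akt1s1 encodes PRAS40, which binds raptor and holds back mTORC1 until Akt phosphorylates it. In Atg5 KO cells it had the smallest p of the 10. Control libraries were at 30.4, 27.4 and 28.5 RPKM and Atg5 KO libraries at 50.6, 54.1 and 50.0, a log2 fold change of 0.83 (SE 0.098, adjusted p = 0.00439) that was 0.89 within the JG libraries. It passed without each of the 6 libraries in turn (adjusted p at most 0.0278). Atg7 KO libraries were at 51.5, 36.1 and 52.4, all above control, and the log2 fold change was 0.67 (SE 0.182, adjusted p = 0.053). It no longer passed in Atg7 KO cells without control replicate 2 (0.64, adjusted p = 0.14), control replicate 3 (0.66, adjusted p = 0.161), Atg7 KO replicate 1 (0.59, adjusted p = 0.157) or Atg7 KO replicate 3 (0.58, adjusted p = 0.14). Fip200 KO libraries were spread around control at 23.8, 34.2 and 41.1 (0.16, SE 0.236, adjusted p = 0.754). The ratio of Akt1s1 to Rptor was 2.03 ± 0.0614 in control, 3.66 ± 0.376 in Atg5 KO, 3.45 ± 0.623 in Atg7 KO and 2.09 ± 0.825 in Fip200 KO cells, again with no overlap in the Atg5 and Atg7 knockouts (exact permutation p = 0.1) and with overlap in the Fip200 knockout.

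Deptor, the other inhibitory subunit, was barely expressed. Control libraries were at 1.42, 3.02 and 1.27 RPKM and the KO libraries ranged from 0.152 in Atg7 KO replicate 2, which rested on 24 reads, to 1.78 in Atg7 KO replicate 1. All groups overlapped and the log2 fold changes of -0.51 to -0.72 did not pass (adjusted p = 0.265 to 0.439). They rested on single libraries, being -0.20 in Atg5 KO and -0.25 in Fip200 KO cells without control replicate 2, and -0.18 in Atg7 KO cells without Atg7 KO replicate 2.

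**Figure D3:**
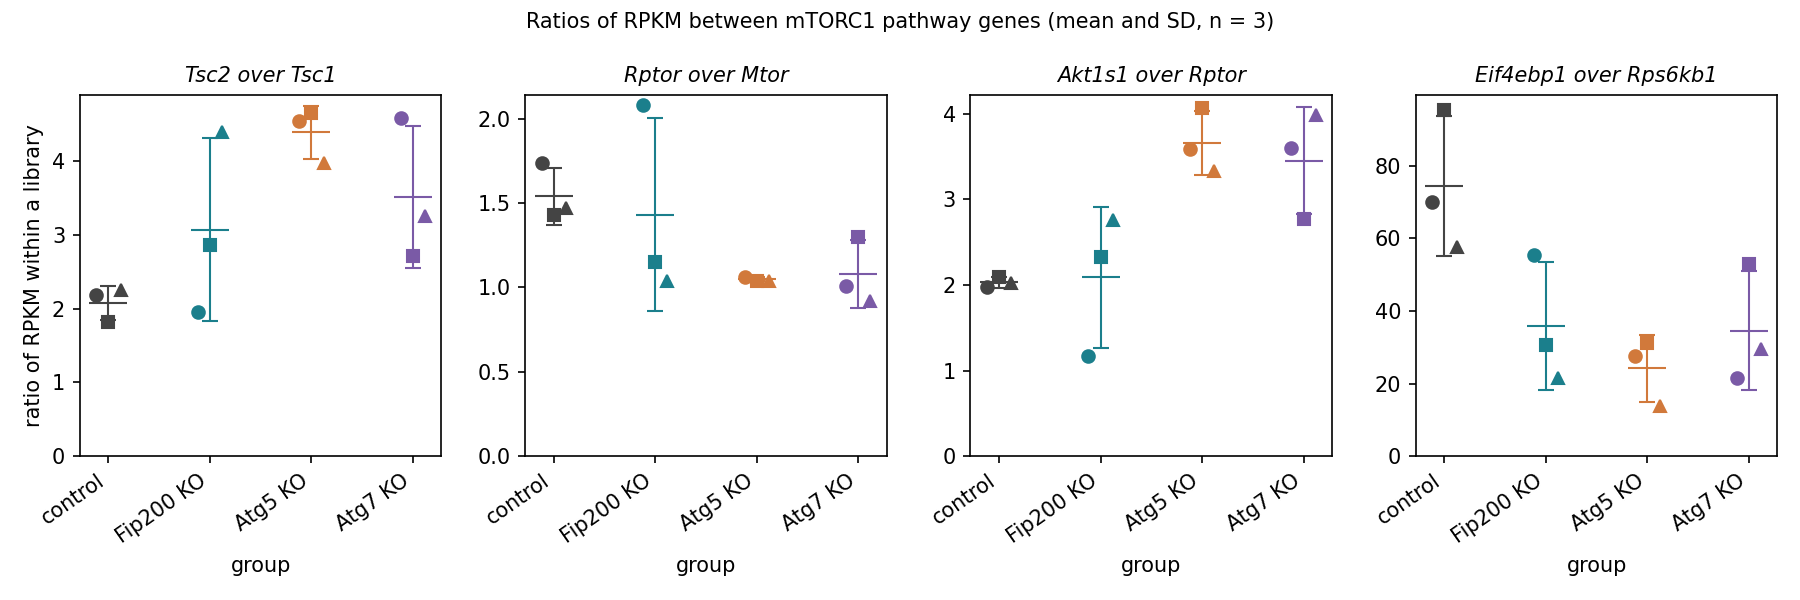
Ratio of the RPKM of a pair of genes within each library, with points for libraries (circle, square and triangle for replicates 1, 2 and 3) and bars for the mean and SD of each group (n = 3). Eif4ebp1 over Rps6kb1 is below control in all 9 KO libraries, while Fip200 KO replicate 1 lies beyond the control range for Rptor over Mtor and Akt1s1 over Rptor in the direction opposite to the Atg5 KO and Atg7 KO libraries.

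Of the best known substrates of the complex, Rps6kb1 rose and Eif4ebp1 fell in Atg5 KO cells, and in Atg7 KO cells Rps6kb1 alone passed. Rps6kb1, the S6 kinase that phosphorylates ribosomal protein S6, was at 5.18, 4.38 and 5.12 RPKM in control. It was at 7.28, 6.60 and 8.32 in Atg5 KO, 8.71, 6.62 and 7.30 in Atg7 KO and 6.26, 6.65 and 8.52 in Fip200 KO cells, so that every KO library lay above every control. The log2 fold changes were close together, 0.55 (SE 0.144, adjusted p = 0.0314), 0.57 (SE 0.18, adjusted p = 0.0748) and 0.50 (SE 0.226, adjusted p = 0.338), and the first was 0.51 within the JG libraries. The gene no longer passed in Atg5 KO cells without Atg5 KO replicate 1 (0.56, adjusted p = 0.106). In Atg7 KO cells it no longer passed without control replicate 1 (0.61, adjusted p = 0.125), control replicate 2 (0.50, adjusted p = 0.182), control replicate 3 (0.60, adjusted p = 0.182), Atg7 KO replicate 1 (0.47, adjusted p = 0.211) or Atg7 KO replicate 3 (0.59, adjusted p = 0.153).

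Eif4ebp1 encodes 4E-BP1, which blocks cap-dependent translation until mTORC1 phosphorylates it. Control libraries held 362, 417 and 295 RPKM. Atg5 KO libraries were lower without overlap at 201, 206 and 115, and Eif4ebp1 fell by 1.07 on the log2 scale (SE 0.253, adjusted p = 0.0227). It passed without each library in turn, but the fall was under 1 in size without control replicate 2 (-0.96) or Atg5 KO replicate 3 (-0.80), and it was -0.78 within the JG libraries. In Atg7 KO cells replicates 1 and 3 were at 186 and 215, but replicate 2 at 351 was within the control range, and the log2 fold change was -0.56 (SE 0.264, adjusted p = 0.185) with it and -0.83 (adjusted p = 0.032) without it. With the prefix term the direction turned (0.28), but that value ties Atg7 KO cells to control only through Atg5 KO replicate 3, the lowest of all 12 libraries for this gene. In Fip200 KO cells replicate 1 at 348 was within the control range and replicates 2 and 3 at 204 and 183 were below it (-0.59, SE 0.295, adjusted p = 0.369). The ratio of Eif4ebp1 to Rps6kb1 combined both movements. It was 69.9, 95.4 and 57.5 in control libraries, 27.6, 31.2 and 13.8 in Atg5 KO, 21.4, 53.0 and 29.4 in Atg7 KO, and 55.5, 30.7 and 21.4 in Fip200 KO. All 9 KO values lay below the control values, with means of 24.2 to 35.9 against 74.3 ± 19.3 (exact permutation p = 0.1 for each KO, the smallest possible). The ratio restates the movements of its 2 genes, and the share of other gene pairs that lie apart in this way was not counted. Fip200 KO replicate 1 and Atg7 KO replicate 2 were just under the lowest control.

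Ddit4 encodes REDD1, a protein that stress, hypoxia and glucocorticoids induce and that inhibits mTORC1 through the TSC complex. It showed the largest change of the 10. Control libraries differed among themselves at 114, 300 and 147 RPKM. Atg5 KO libraries were at 37.6, 46.3 and 63.1 and Atg7 KO libraries at 40.6, 38.8 and 51.7, all below the lowest control. Ddit4 fell by 1.83 on the log2 scale in Atg5 KO (SE 0.367, adjusted p = 0.0145) and by 1.97 in Atg7 KO cells (SE 0.346, adjusted p = 0.0193). Without control replicate 2, the highest library, the values were -1.42 (adjusted p = 0.0179) and -1.57 (adjusted p = 0.0417), and both calls held without each library in turn. Within the JG libraries, which include that control, the Atg5 KO value was -2.32. Fip200 KO libraries differed most, at 93.8, 131 and 17.6, with replicate 2 inside the control range and replicate 3 the lowest of all 12 libraries. The log2 fold change of -1.50 (SE 0.742, adjusted p = 0.367) did not pass and was -0.63 without Fip200 KO replicate 3.

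Correlations over the 12 libraries include the differences between the groups and between the prefixes, and are given as a description. On log2(RPKM + 0.5) Tsc1 varied with Ddit4 (Pearson r = 0.928 over 12 libraries), Mtor with Rps6kb1 (0.888) and with Akt1s1 (0.854), and Mtor against Eif4ebp1 (-0.915). For Tsc1 and Tsc2 the r was 0.047. Among 8574 genes with at least 2 RPKM in every library, those most like Tsc1 included Sec14l1 (r = 0.946) and Csnk2a1, a catalytic subunit of casein kinase 2 (0.942). Those most like Ddit4 were Coq8b (0.949), Grina (0.947) and Pvr (0.938). Of these, Sec14l1 passed as lower in the Atg5 and Atg7 knockouts (-0.55 and -0.68), as did Grina (-1.38 and -1.39), Coq8b (-0.81 and -0.91) and Pvr (-0.63 and -0.82), while Csnk2a1 did not pass (-0.23 and -0.32). They were picked for their r with Tsc1 or Ddit4 over the same libraries, so a shared direction largely follows from the choice. Of all genes, 18.7% and 13.7% passed as lower.

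The KO groups were also compared with each other in 1 fit of all 12 libraries. By limma 0 of the 10 genes passed in any of the 3 comparisons, and 0 of all genes passed, the smallest adjusted p over all genes being 0.203. At an unadjusted p under 0.05 stood 1 of the 10 in Atg5 KO against Fip200 KO, beside 927 of 12233 genes. It was 1 in Atg7 KO against Fip200 KO (916 of all genes) and 0 in Atg7 KO against Atg5 KO (562 of all genes). The smallest p was that of Akt1s1, higher in Atg5 KO than in Fip200 KO cells by 0.67 (SE 0.206, unadjusted p = 0.00765, adjusted p = 0.524) and in Atg7 KO than in Fip200 KO cells by 0.51 (SE 0.206, unadjusted p = 0.0318, adjusted p = 0.65). Between Atg7 KO and Atg5 KO cells the largest difference was that of Eif4ebp1 (0.52, SE 0.322, adjusted p = 1.0), which was 0.24 without Atg5 KO replicate 3, 0.25 without Atg7 KO replicate 2 and 1.07 among the Yang libraries. A gene that passed against control in Atg5 KO and not in Fip200 KO cells is therefore not shown to differ between them. Without Fip200 KO replicate 3, Akt1s1 passed between Atg5 KO and Fip200 KO cells (0.84, adjusted p = 0.0771) and Ddit4 between Atg7 KO and Fip200 KO cells (-1.35, adjusted p = 0.0857). Without that library 4.83% and 6.36% of all genes passed in these comparisons.

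The rest of the pathway was read from 7 lists of 93 genes, of which 88, 87 and 86 could be tested in the Atg5, Atg7 and Fip200 knockouts. Of these 40, 26 and 1 passed, beside 41.5%, 25.1% and 2.05% of all genes. In Atg5 KO cells 16 rose and 24 fell, and in Atg7 KO cells 9 rose and 17 fell. Without each library in turn 25 to 43 passed in Atg5 KO and 8 to 34 in Atg7 KO cells, the fewest without Atg5 KO replicate 1 and without control replicate 3. Of 11 other components of the TSC complex, mTORC1 and mTORC2, 4 rose and 4 fell in Atg5 KO cells and 2 rose and 1 fell in Atg7 KO cells. Mlst8, the remaining core subunit of both complexes, was at 3.01, 2.85 and 2.78 RPKM in control and 5.71, 5.71 and 5.48 in Atg5 KO cells and rose by 0.86 (SE 0.126, adjusted p = 0.00651). Tti2, which with Telo2 helps to assemble the kinase, fell from 5.94, 5.71 and 5.19 to 3.26, 3.31 and 2.93 (-0.74, SE 0.133, adjusted p = 0.0109). Telo2 itself rose in Atg5 KO (0.79, SE 0.173, adjusted p = 0.0186) and Atg7 KO cells (0.97, SE 0.232, adjusted p = 0.0373). The only called gene of this list was Ddit4l, the paralog of Ddit4, with log2 fold changes of -2.66 (adjusted p = 0.0409) and -2.59 (adjusted p = 0.0625) in the Atg5 and Atg7 knockouts, a gene picked out after its values were seen.

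Of 27 genes of lysosomal amino acid sensing, 26 were tested in Atg5 KO cells, where 3 rose and 4 fell, and 25 in Atg7 KO cells, where 1 rose and 5 fell, beside 41.5% and 25.1% of all genes that passed. Itfg2, a subunit of the KICSTOR complex that places the GATOR1 brake at the lysosome, was at 4.77, 5.47 and 5.09 RPKM in control and 9.62, 9.50 and 11.0 in Atg5 KO cells (0.91, SE 0.127, adjusted p = 0.00606). Fnip2, a partner of folliculin, was at 16.3, 22.8 and 17.9 in control and 10.2, 10.9 and 10.5 in Atg5 KO cells (-0.81, SE 0.147, adjusted p = 0.011). Of the inputs by AMPK and LKB1, 2 of 8 tested genes rose in Atg5 KO cells, Prkag2, a regulatory subunit of AMPK (1.26, SE 0.306, adjusted p = 0.025), and Stk11, which encodes LKB1 (0.38, SE 0.12, adjusted p = 0.0535). Stk11 no longer passed without control replicate 3 (0.32, adjusted p = 0.144), Atg5 KO replicate 1 (0.35, adjusted p = 0.181) or Atg5 KO replicate 3 (0.34, adjusted p = 0.116). No gene of that list passed in Atg7 KO or Fip200 KO cells.

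Of 12 translation effectors, 5 rose and 2 fell in Atg5 KO cells and 4 rose and 1 fell in Atg7 KO cells, beside 22.9% and 11.3% of all genes that passed as higher. They had a median log2 fold change of 0.29 and 0.33 beside 0.06 and -0.01 over all genes tested. Rps6, the ribosomal protein that S6 kinase phosphorylates and a gene with processed pseudogenes that can share its reads, was at 319, 309 and 294 RPKM in control and 430, 421 and 499 in Atg5 KO cells (0.55, SE 0.111, adjusted p = 0.015). Pdcd4, an inhibitor of the helicase eIF4A, fell in Atg5 KO (-0.69, SE 0.158, adjusted p = 0.0207) and Atg7 KO cells (-0.85, SE 0.19, adjusted p = 0.0318).

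Of 7 other substrates of mTORC1 or of the S6 kinase below it that were tested, 1 rose and 4 fell in Atg5 KO cells and 1 rose and 3 fell in Atg7 KO cells, beside 18.7% and 13.7% of all genes that passed as lower. Cad, the enzyme that starts pyrimidine synthesis, was at 13.4, 11.4 and 11.2 RPKM in control, 31.5, 25.4 and 35.5 in Atg5 KO, 37.5, 25.8 and 37.0 in Atg7 KO and 24.8, 23.8 and 54.5 in Fip200 KO cells. All 9 KO libraries were above control, and Cad rose by 1.32 (SE 0.154, adjusted p = 0.00427) in Atg5 KO and 1.43 (SE 0.193, adjusted p = 0.0109) in Atg7 KO cells. The Fip200 KO difference of 1.38 did not pass (adjusted p = 0.131), but passed without Fip200 KO replicate 3 (0.995, adjusted p = 0.0575) and in the fit of 12 libraries. Tfeb, the transcription factor that drives lysosomal and autophagy genes and that mTORC1 keeps out of the nucleus, was at 5.12, 4.77 and 6.10 in control, 1.10, 1.41 and 1.57 in Atg5 KO cells and 0.946, 1.00 and 1.92 for the Atg7 knockout. It fell by 1.65 (SE 0.172, adjusted p = 0.00372) and 1.74 (SE 0.255, adjusted p = 0.0127). Ulk1, the kinase that starts autophagy, fell from 12.9, 15.3 and 14.6 to 10.0, 9.46 and 9.51 in Atg5 KO cells (-0.53, SE 0.117, adjusted p = 0.0183) and to 6.01, 6.82 and 6.87 in Atg7 KO cells (-1.06, SE 0.158, adjusted p = 0.0127). Lpin1, a phosphatidate phosphatase that restrains lipid synthesis genes, fell by 1.29 (SE 0.201, adjusted p = 0.00756) and 1.79 (SE 0.244, adjusted p = 0.011). These 4 genes passed in both knockouts without each library in turn.

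**Figure D4:**
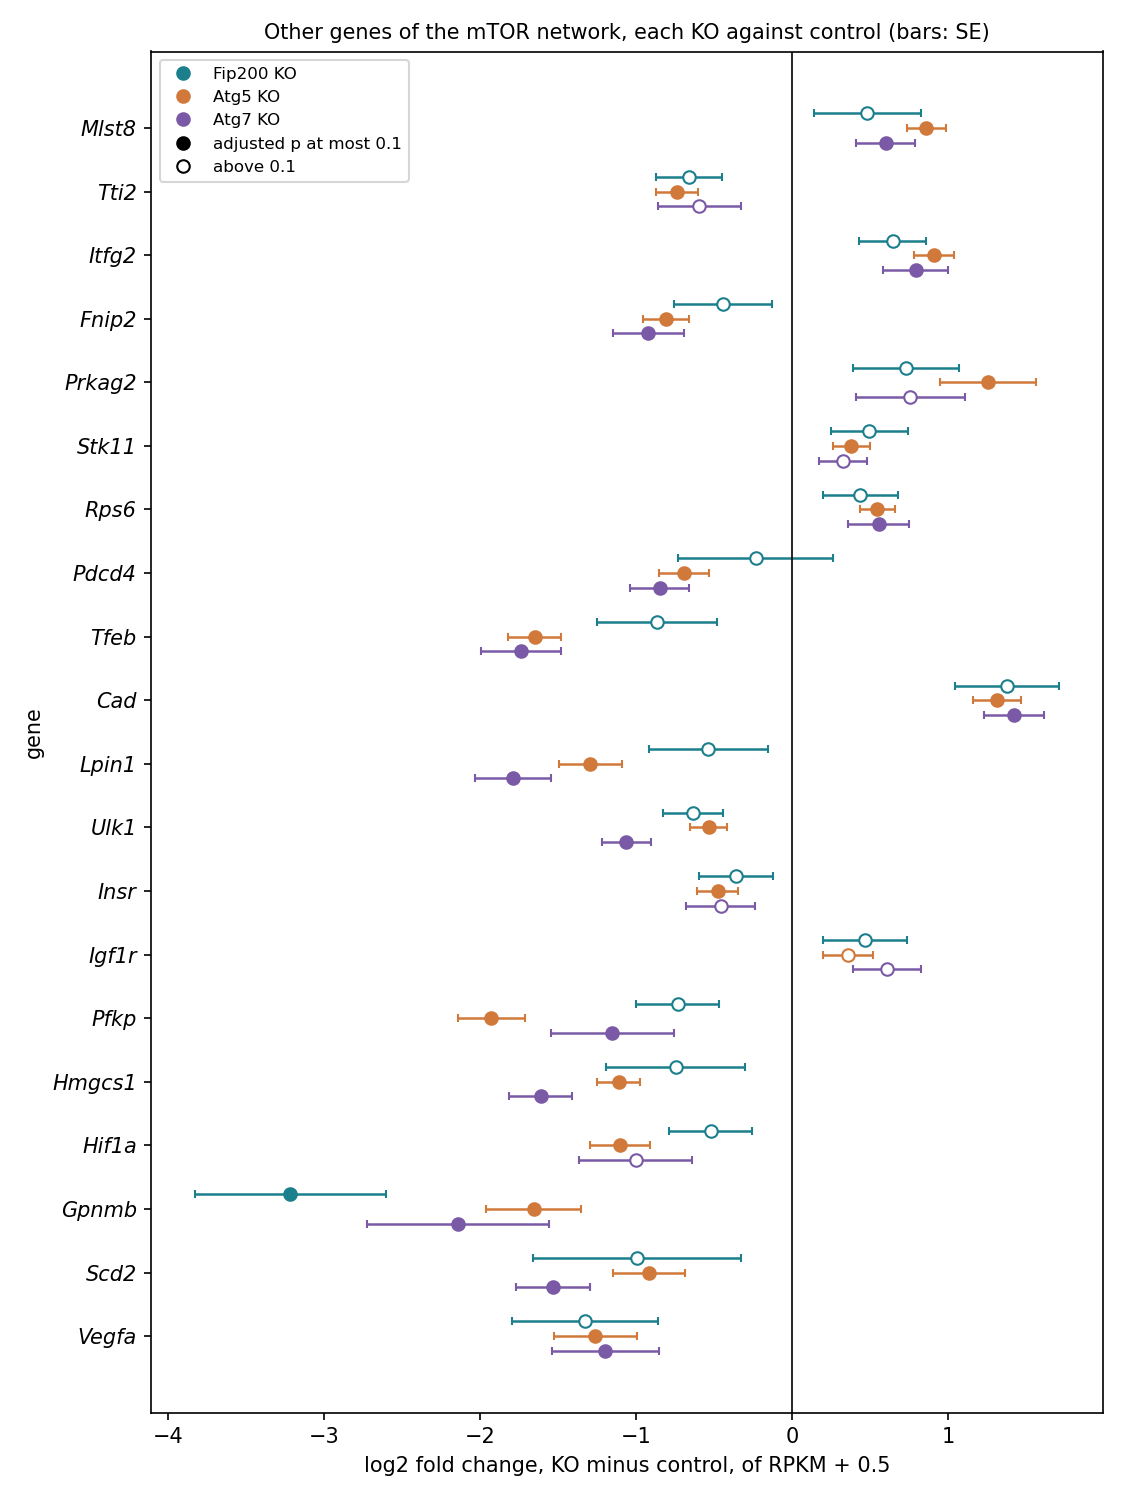
Log2 fold change on log2(RPKM + 0.5) of the 20 genes named from the other pathway lists, for each KO against control, with the standard error as a bar and filled points where the adjusted p was at most 0.1. Cad is the highest gene in all 3 comparisons (1.32 to 1.43) and Gpnmb the lowest in Fip200 KO and Atg7 KO cells (-3.22 and -2.14).

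Of the growth factor receptors and adaptors under mTORC1 feedback, 4 of 6 were tested in Atg5 KO cells and only the insulin receptor gene Insr passed, as lower (-0.48, SE 0.133, adjusted p = 0.0377). It no longer passed without Atg5 KO replicate 2, where its adjusted p lay just above the threshold. Of 20 transcripts known to be induced by mTORC1 in Tsc-null cells, 1 rose and 9 fell in Atg5 KO cells, 1 rose and 7 fell in Atg7 KO cells and 1 fell in Fip200 KO cells, where 18.7%, 13.7% and 1.69% of all genes passed as lower. They had medians of -0.40, -0.45 and -0.27 beside 0.06, -0.01 and 0.02 over all genes tested. The gene that rose was Fasn, by 0.53 in Atg5 KO (SE 0.151, adjusted p = 0.0399) and 0.525 in Atg7 KO cells (SE 0.183, adjusted p = 0.0956). Its Fip200 KO value of 0.889 did not pass (SE 0.273, adjusted p = 0.191). Hmgcs1, an enzyme of cholesterol synthesis, fell from 64.2, 56.7 and 69.5 RPKM to 27.8, 33.6 and 26.1 in Atg5 KO (-1.11, SE 0.136, adjusted p = 0.00478) and 17.8, 17.5 and 27.0 in Atg7 KO cells (-1.61, SE 0.203, adjusted p = 0.00967). Scd2, a fatty acid desaturase, had log2 fold changes of -0.92 (SE 0.229, adjusted p = 0.027) and -1.53 (SE 0.236, adjusted p = 0.0144). The glycolytic gene Pfkp fell by 1.93 (SE 0.215, adjusted p = 0.00406), Hif1a by 1.10 (SE 0.191, adjusted p = 0.00995) and Vegfa, a target of HIF1A, by 1.26 (SE 0.268, adjusted p = 0.0169) in Atg5 KO cells. These 5 genes that fell passed in Atg5 KO cells without each library in turn, and Hmgcs1 and Scd2 did so in Atg7 KO cells as well. Gpnmb, a lysosomal glycoprotein, was the only gene of all 7 lists that passed in Fip200 KO cells. It was at 60.5, 115 and 143 in control and 13.6, 3.68 and 20.8 in Fip200 KO cells (-3.22, SE 0.613, adjusted p = 0.0826). It no longer passed without each of the control replicates and without Fip200 KO replicate 1 or 2 (log2 fold change -2.53 to -3.57, adjusted p = 0.115 to 0.459). In Atg5 KO cells Gpnmb fell by 1.65 (SE 0.305, adjusted p = 0.0115).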

How the data were processed

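RNA-sequencing libraries of 562 cells were used, 3 each from control cells and from the Atg5, Atg7 and Fip200 knockouts, grouped by sample title. Per the labels and the paper's methods, libraries were made with the NEBNext Ultra II Directional kit, aligned with TopHat2 and counted with Bioconductor packages. The build, annotation and versions are not given in the sources used here. The authors deposited 1 table per KO with RPKM values per library, and the unit was read from the values. The 3 control columns are the same in all tables. The authors' group means, fold changes and p-values were not used. Whole reads were recovered from the RPKM ratios for 14851 of 14851 genes (tolerance 0.001) and served only for depth, and no count model was run on them.

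limma 3.58.1 (R 4.3.3) was run on log2(RPKM + 0.5), the unit of the tables, for genes that reached 0.5 RPKM in 3 or more libraries of a comparison, with an empirical Bayes trend and Benjamini-Hochberg adjustment over all genes tested. KO groups were compared in 1 fit of 12 libraries. Thresholds were 0.1 for the adjusted p and 1 for the size of the log2 fold change. Ratios were tested by exact two-sided permutation. The scripts were tested on simulated data. The 10 genes, the other lists and the tests were chosen with earlier results of these data known. Genes named from the other lists were up to 6 called genes per list with the smallest adjusted p, or the 2 with the smallest adjusted p where fewer than 2 were called. Within a group no library was a copy of another (lowest chi-square between replicates, divided by its degrees of freedom, 8.191), and libraries of different groups were not compared in this way. A result among the genes most like Tsc1 is not reported here. Promoters are from RefSeq. Python 3.11.15, pandas 2.3.3, scipy 1.17.1 and matplotlib 3.10.9 were used.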

Additional observations from a re-analysis of the deposited data

How the results depend on the processing

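Of 930 alternatives for the 60 member results, 843 kept direction and side of the threshold, 28 lost and 5 gained a pass, 48 turned in sign and 6 moved by more than the spread. In the fit of 12 libraries 9 and 19 genes of the other lists passed in Fip200 KO and Atg5 KO cells, and 1155, 2328 and 2448 of all genes in the Fip200, Atg5 and Atg7 knockouts. With a term for the library-name prefix in that fit, 0 of the 10 genes passed or were called in Atg5 KO and Atg7 KO cells, and 5, 0 and 0 genes of the other lists and 787, 38 and 47 of all genes passed in the Atg5, Atg7 and Fip200 knockouts. With no filter on low values 0 genes of the other lists and 157 of all genes passed in Fip200 KO cells. In the separate fits of 6 libraries 242, 4914 and 2955 of all genes passed in the Fip200, Atg5 and Atg7 knockouts. The shared replicate numbers did not pair the libraries (correlation of deviations -0.242 to 0.1). With a replicate block 17 genes of the other lists and 1896 of all genes passed in Atg7 KO cells and 93 of all genes in Fip200 KO cells, and Tsc1 in Atg5 KO cells (adjusted p = 0.133) and Rps6kb1 in Atg7 KO cells (adjusted p = 0.127) were lost. The cause of these changes was not tested.

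Signs turned mostly where the value was near 0. With median-of-ratios scaling these were Rheb in Atg5 KO against control (-0.006), and Tsc1 (0.058) and Rptor (0.002) in Atg7 KO against Atg5 KO. With the prefix term they were Rptor in Atg5 KO (0.009), Tsc2 (-0.01) and Eif4ebp1 (0.28) in Atg7 KO against control, Deptor in Atg5 KO against Fip200 KO (-0.54), Tsc2 (-0.13), Mtor (-0.17) and Rps6kb1 (-0.051) in Atg7 KO against Fip200 KO, and Rps6kb1 in Atg7 KO against Atg5 KO (-0.14). The cause was not tested. Leaving out 1 library at a time, 5 to 7 of the 10 genes passed and 1 to 2 were called in Atg5 KO cells, 1 to 6 passed in Atg7 KO cells (6 without Atg7 KO replicate 2, and 1 without control replicate 2 or 3 or Atg7 KO replicate 1 or 3) and 0 to 1 passed and 0 to 1 were called between KO groups. Genes of the other lists that passed were 0 to 3 in Fip200 KO, 25 to 43 in Atg5 KO and 8 to 34 in Atg7 KO cells, and of all genes 0 to 752, 2785 to 4917 and 707 to 3875. Left-out values that turned a sign are given as ranges of the log2 fold change. In Fip200 KO against control they ran from -0.55 to 0.038 for Tsc1, from -0.025 to 0.22 for Tsc2, from -0.009 to 0.38 for Akt1s1, from -0.82 to 0.18 for Pdcd4. In Atg5 KO against control they ran from -0.062 to 0.052 for Rptor. In Atg7 KO against control they ran from -0.031 to 0.43 for Tsc2. In Atg5 KO against Fip200 KO they ran from -0.55 to 0.038 for Tsc1, from -0.001 to 0.26 for Mtor, from -0.16 to 0.17 for Deptor, from -0.030 to 0.18 for Rps6kb1, from -1.20 to 0.23 for Ddit4. In Atg7 KO against Fip200 KO they ran from -0.55 to 0.035 for Tsc1, from -0.15 to 0.31 for Tsc2, from -0.088 to 0.22 for Mtor, from -0.51 to 0.39 for Deptor, from -0.025 to 0.20 for Rps6kb1, from -0.23 to 0.32 for Eif4ebp1, from -1.35 to 0.086 for Ddit4. In Atg7 KO against Atg5 KO they ran from -0.12 to 0.11 for Tsc1, from -0.17 to 0.075 for Mtor, from -0.26 to 0.011 for Akt1s1, from -0.57 to 0.34 for Deptor, from -0.079 to 0.11 for Rps6kb1, from -0.32 to 0.054 for Ddit4. Ratios within a library do not depend on scaling, filter or pseudocount. Depth limits Deptor most, since 24 reads gave its lowest value. A group of 2 left by such a fit is assumed to vary like the other.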
